A study of Pimephales promelas with 12 samples.

Results

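A group of 93 contigs was nearly restricted to the gut of the adult male fathead minnow (FHM, Pimephales promelas), out of 46309 contigs with a read in any library. A contig is an assembled or single sequence that stands for a transcript here, and several contigs can come from the same gene. A contig entered the group when its mean raw count was at least 50 over the 3 gut libraries and it had at most 5 counts in every one of the 9 libraries of liver, hypothalamus and telencephalon, with a contig missing from a library's list taken as 0. The members were thus chosen by their raw counts in all 12 libraries, so the label is met by construction and the difference between gut and the other tissues only describes the choice. The same rule gave 68 contigs for liver, 5 for hypothalamus and 6 for telencephalon. For each brain region it also set the limit of 5 counts in the other brain region. A further 607 contigs averaged at least 50 counts in both brain regions and had at most 5 in every gut and liver library. The 93 made up 0.496% of the 18756 contigs whose mean gut count reached 50.

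The data came from 12 RNA-seq libraries, 3 of each tissue, from untreated adult males of an in-house culture that were killed with the anaesthetic MS-222. The study describes 3 individual males, and libraries with the same replicate number tended to deviate in the same direction in different tissues. Each number is therefore treated as a fish. The labels do not link the numbers across tissues, so this is an assumption, and a numbered fish below stands for a replicate number. The sources used here name neither the gut segment nor the feeding state. Messenger RNA was enriched with oligo-dT beads, and the authors counted only reads that mapped to a single contig. Gut libraries held 19301093 to 20801155 counts each, liver libraries 14546298 to 16721570, hypothalamus libraries 18845704 to 22589095 and telencephalon libraries 17729942 to 21463583.

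The gut of FHM, a cyprinid, has no stomach, and food passes straight into an intestine that digests, absorbs and secretes along its length. Its wall holds absorptive enterocytes, mucus-secreting goblet cells, hormone-releasing enteroendocrine cells, smooth muscle, nerves and many immune cells, and a dissected gut can carry pancreatic tissue, which is diffuse in cyprinids. Enterocytes build up very large amounts of a few messages for digestive enzymes, transporters and lipid carriers. The contig names carry no gene names, and 0 of the 11230 names that hold a sequence identifier matched the 64593 genes of the gene table used here (assembly fPimPro1.hap1.1). Neither the tissue labels nor the cell types could therefore be checked against marker genes, and no function is given to any contig. In bulk tissue, fewer cells of a type and less RNA per cell cannot be told apart.

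The 93 contigs were a small part of the gut RNA and spanned a wide range of counts. Their summed counts were 30404, 35993 and 30826 in gut replicates 1 to 3, which was 0.163 ± 0.0094% of the library (SD, n = 3). In liver the sums were 38, 41 and 100 counts, in hypothalamus 68, 46 and 69, and in telencephalon 90, 59 and 50. As counts per 1000000 (CPM, scaled by edgeR's TMM factors, which adjust for a few very abundant contigs), the pooled sum came to 1763 CPM over the gut libraries, and to 5.92, 2.29 and 2.57 CPM over those of liver, hypothalamus and telencephalon. Gut was thus 298-fold over liver, 769-fold over hypothalamus and 687-fold over telencephalon for the group as a whole, as the rule asked. The mean gut count had a median of 179 and ran up to 1982 counts. It was at least 500 for 25 contigs, 100 to under 500 for 38 and under 100 for 30. The 10 highest contigs held 39.0% of the group's gut counts. Raw counts grow with the length of a contig, so this order is one of reads and not of transcript level.

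**Figure D1:**
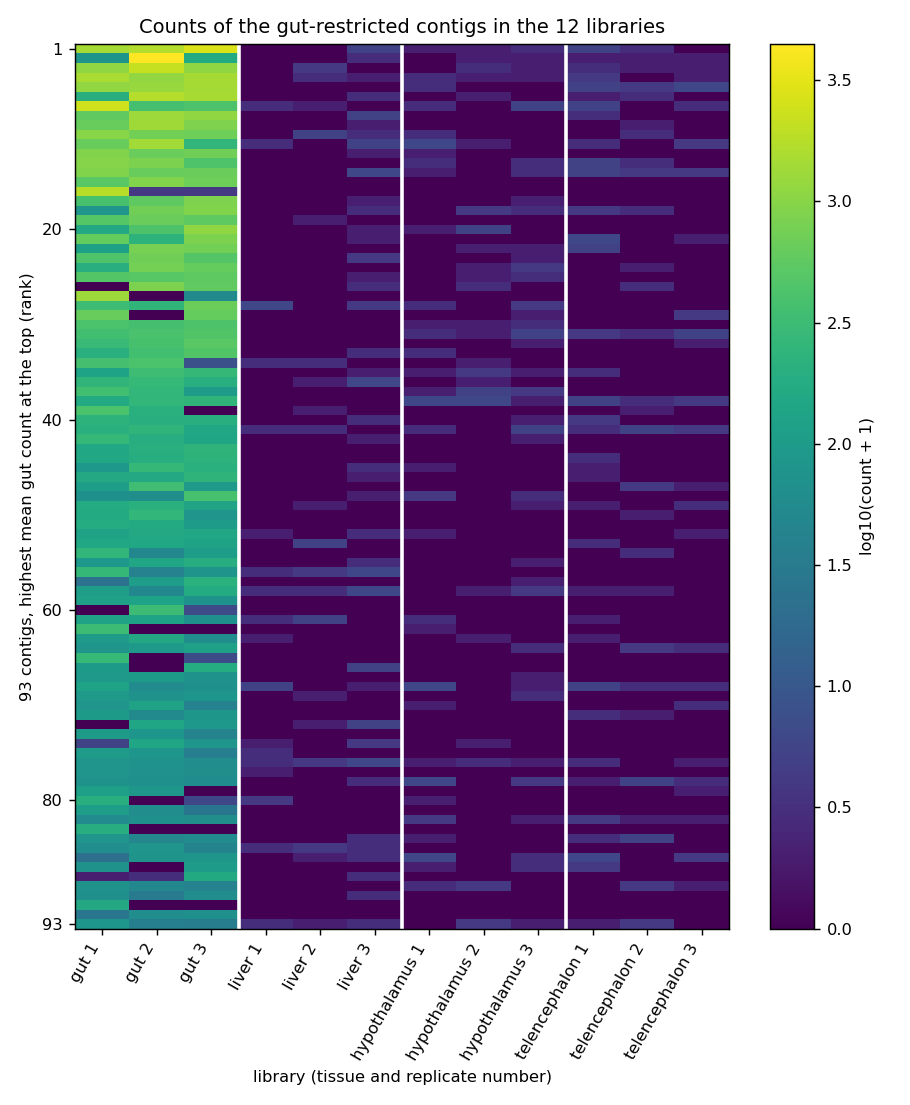
Counts of the 93 contigs in each library as log10(count + 1), with contigs ranked by mean gut count from the top and the 12 libraries by tissue and replicate number. The 3 gut columns are bright for most contigs, with dark gaps at 0 to 3 counts in 16 contigs, and no cell of the other 9 columns exceeds 5 counts.

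The highest mean gut count of the group was that of FHM_All_PTA_Assem.670.C5, which had 1458, 1682 and 2807 counts in gut, against 0, 0 and 4 in liver, 1, 1 and 2 in hypothalamus and 4, 2 and 0 in telencephalon. FHM_All_PTA_Assem.4749.C2 was more even, with 1542, 1139 and 1461 counts in gut, 0, 2 and 1 in liver, 2, 1 and 1 in hypothalamus and 3, 0 and 1 in telencephalon. Expressed sequence tag DT173352 had 1130, 1236 and 1444 counts in gut, 0 in all liver libraries, 2, 0 and 0 in hypothalamus and 4, 3 and 5 in telencephalon. These contigs were present in every gut library at a level that varied by less than 2-fold between fish. Against 3 counts over the liver group, which is what a count of 0 allows, DT173352 was at least 697-fold higher in gut than in liver. The remaining contigs among the 10 highest included FHM_All_PTA_Assem.13019.C2, with 1011, 754 and 687 counts in gut, and FHM_All_PTA_Assem.7664.C2, with 637, 1350 and 884. Both had at most 4 counts in any other library.

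Other contigs near the top had most of their reads in only some of the fish. FHM_All_PTA_Assem.2936.C2 ranked second by its mean, yet it had 77, 4465 and 167 counts in gut, so that 1 fish held most of its reads. FHM_All_PTA_Assem.1555.C2 had 2471, 377 and 424 counts, with replicate 1 far above the others. FHM_All_PTA_Assem.21062.C1 had 199, 1766 and 1484 counts, with replicate 1 far below. A high mean in this group did not therefore mean a high count in each gut.

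Values near the limits of the rule showed no gap there. The 4 lowest members were c10155/f1p0/1160, with 81, 37 and 34 counts in gut (mean 50.7), FHM_All_PTA_Assem.2936.C3 with 26, 61 and 68, Singlet_56047 with 157, 0 and 0, and c20740/f1p6/3401 with 66, 31 and 60. Just under the lower limit were c11290/f3p0/1087, with 87, 42 and 16 counts (mean 48.3), Singlet_15270 (mean 47.3) and DT289207 (mean 44.3). In all, 34 contigs met the upper limit with a gut mean of 25 to under 50. On the other side, 21 contigs with a gut mean of at least 50 missed the group because their highest count elsewhere was 6, and 101 had a highest count of 6 to 10. The most abundant of those at 6 were FHM_All_PTA_Assem.631.C3, with 12466, 8463 and 142 counts in gut, DT137291 with 4410, 3883 and 3732, and FHM_All_PTA_Assem.6274.C1 with 5360, 6 and 2184. Each of these had a higher mean gut count than any member.

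The rule let a member have at most 5 counts in each library outside gut, so few reads there are set by the choice. Across the 9 other libraries a member had a median of 5 counts in sum and at most 20. All 9 were at 0 for 13 contigs, all liver libraries for 37, all hypothalamus libraries for 34, all telencephalon libraries for 42 and all 6 brain libraries for 22. For 47 contigs no other library exceeded 2 counts, and for 13 contigs some library reached the limit of 5. The sum outside gut, capped by the rule, rose only weakly with the gut mean across the 93 contigs (Spearman's rho 0.23). This is a description over contigs that share the same libraries. After scaling, 3 counts, the upper limit that a count of 0 allows, were 0.157 to 0.167 CPM in gut, 0.291 to 0.302 in liver and 0.102 to 0.131 in the brain libraries. A contig at 0 in liver is therefore less tightly bounded than a contig at 0 in brain. These bounds cover counting error only.

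The highest member with 0 counts in the 9 other libraries was the PacBio isoform c14283/f5p9/2540, a 2540-base sequence built from 5 full-length long reads. It had 519, 893 and 696 counts in the gut libraries. Against 3 counts over each group it was at least 385-fold higher in gut than in liver, at least 1017-fold higher than in hypothalamus and at least 988-fold higher than in telencephalon.

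Liver replicate 3 had the highest scaled level of the group outside gut. As raw counts the sum was 100 in liver replicate 3 and 90 in telencephalon replicate 1, whose TMM factors were 0.682 and 1.37. The group's summed level was 3.79, 3.98 and 10.1 CPM in liver replicates 1 to 3, 2.32, 1.80 and 2.77 CPM in hypothalamus and 3.30, 2.15 and 2.19 CPM in telencephalon. In liver replicate 3, 42 of the 93 contigs had a count, against 18 and 20 in the other liver libraries. The brain libraries ran up to 39, in hypothalamus replicate 3. Without liver replicate 3 the pooled liver level was 3.89 CPM and gut was 454-fold over liver. With the rule applied without liver replicate 3, 112 contigs qualified. Without hypothalamus replicate 1 the number was 109 and without liver replicate 1 it was 104. Leaving out a library outside gut only lifts a limit, so all 93 qualify each time by construction. The source of these reads was not tested.

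**Figure D2:**
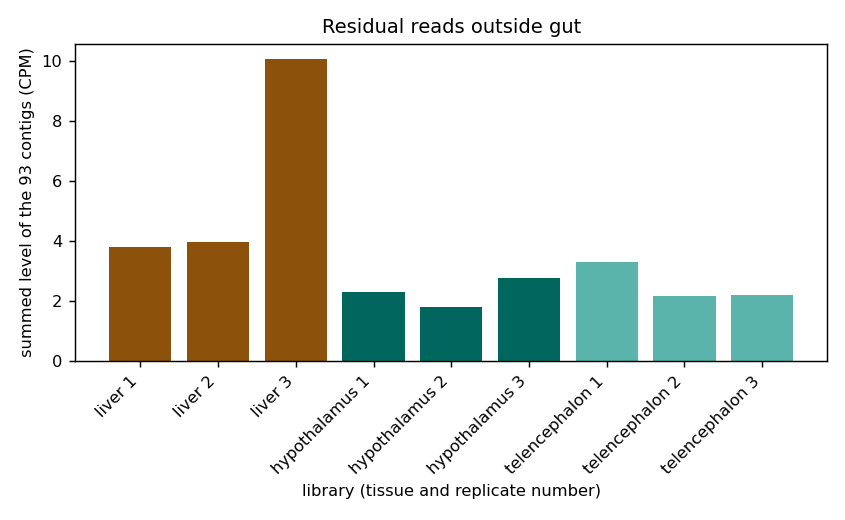
Summed level of the 93 gut-restricted contigs in each of the 9 libraries outside gut, in TMM-scaled CPM from 0, 1 bar per library. Liver replicate 3 reaches 10.1 CPM, and the other 8 libraries lie between 1.80 and 3.98 CPM.

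The gut level of the group varied more from fish to fish than that of other contigs. The rule set no limit on this spread. It did use the mean of the same gut counts and a ceiling in libraries of the same fish, so the difference is a description. The spread was taken as the SD of log2(CPM + 1) over the 3 gut libraries. Its median was 0.54 over the 93 contigs (quartiles 0.30 and 1.33), against 0.26 over all 18756 contigs whose mean gut count was at least 50 and 0.26 over the 17204 of them whose gut mean lay in the group's own range. The 68 contigs nearly restricted to liver had a median of 0.57 between liver libraries, against 0.30 over all contigs that averaged at least 50 counts there. The 607 contigs restricted to both brain regions had a median of 0.55 in hypothalamus, against 0.41 over all contigs that averaged at least 50 counts there, and 0.25 in telencephalon, against 0.20. The spread was wider than that of all contigs in each of these groups, by less in the brain-restricted one, and no test of the difference was made, since contigs share libraries and are not replicates. Without gut replicate 1 the median was 0.32 over the 93 contigs and 0.19 over the 18756.

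In 16 of the 93 contigs at least 1 gut library had at most 3 counts, and in 14 of these it was at exactly 0. Such libraries and contigs are called near-empty, a limit set after the values were seen. A mean over the gut libraries lets a contig high in a single gut enter, and the same holds for the gut and liver sets compared. The brain set had to reach its mean in both regions, so a single high library was not enough there. That was 17.2% of the group, against 1.39% of all contigs that reached a mean gut count of 50 and 1.51% of those in the same range of means. Among the liver-restricted contigs it was 9 of 68 in liver, 13.2%. Among the 607 contigs restricted to both brain regions it was 4.12% in hypothalamus and 3.95% in telencephalon. With gut replicate 2 left out of the count, 10 members (10.8%) were near-empty, against 1.08% of all contigs that reached a mean gut count of 50.

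FHM_All_PTA_Assem.7598.C3 had the largest spread of the group, with 1828, 3 and 3 counts in gut and 0 in the 9 other libraries. FHM_All_PTA_Assem.20015.C5 followed, with 1310, 0 and 55 counts in gut and 0 elsewhere. Their SD was 3.73 and 3.17 on the log2 scale. At the other end, FHM_All_PTA_Assem.23246.C1 had 57, 68 and 63 counts in gut (SD 0.070) and Singlet_14884_R had 148, 148 and 124 (SD 0.12). The group thus held both contigs with steady counts between fish and contigs with almost no counted reads in some of them.

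The near-empty libraries were not all from 1 fish. Replicate 1 alone was near-empty for 3 contigs, replicate 2 alone for 6 and replicate 3 alone for 2, while replicates 2 and 3 were both near-empty for 4 and replicates 1 and 2 for 1. Counted by library, this was 4 contigs in replicate 1, 11 in replicate 2 and 6 in replicate 3, and 10 of the 16 were at their highest in replicate 1. The highest gut count of these contigs was 101 to 1828, so each was well measured in at least 1 fish. Singlet_55774_R, Singlet_56047 and c32110/f2p0/966, named here after their values were seen, had 317, 157 and 186 counts in replicate 1 and 0 in both other gut libraries. For 6 of the 16, all 9 other libraries were at 0.

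**Figure D3:**
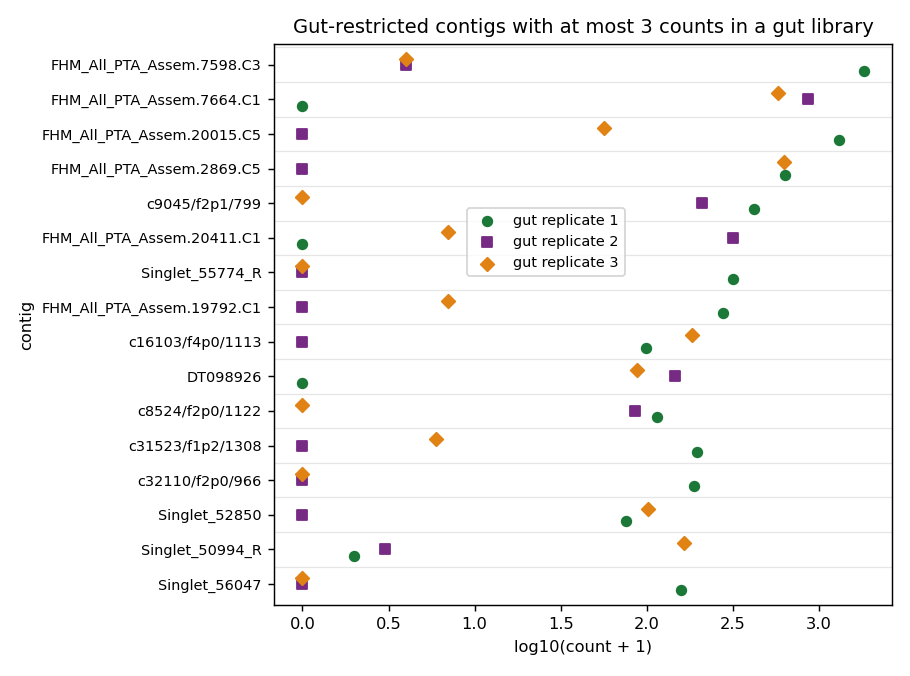
Counts of the 16 gut-restricted contigs with at most 3 counts in a gut library, as log10(count + 1), with 1 row per contig and a marker for each gut replicate. Each contig exceeds 100 counts in at least 1 fish, and the low libraries fall in replicate 2 most often, in 11 contigs.

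The other 77 contigs had over 3 counts in each gut library. Their highest gut library, scaled, was a median of 1.95-fold over the lowest. For 40 of them the gut libraries lay within 2-fold, for 37 they differed more, and for 15 by over 4-fold, up to 56.5-fold for expressed sequence tag DT283966 (374, 417 and 7 counts, named after its values were seen). No fish was highest throughout. Of the 93 contigs, 38 (40.9%) were highest in gut replicate 1, 30 (32.3%) in replicate 2 and 25 (26.9%) in replicate 3. Over all contigs that reached a mean gut count of 50 the shares were 35.2%, 36.1% and 28.7%. Across the 93 contigs, log2 levels correlated with Pearson's r of 0.33 between gut replicates 1 and 2, 0.40 between 1 and 3 and 0.71 between 2 and 3. Without the 16 near-empty contigs the values were 0.66, 0.67 and 0.77. Over all contigs that reached a mean gut count of 50 they were 0.89, 0.89 and 0.93. This wider set kept its own near-empty contigs and was not limited to the group's range of gut means. These correlations are across contigs, which are not independent replicates.

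**Figure D4:**
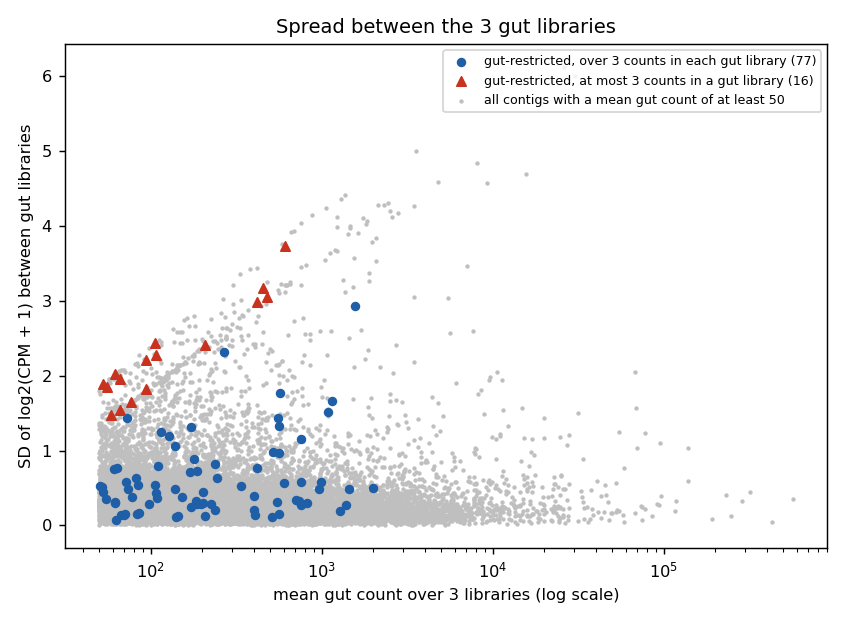
SD of log2(CPM + 1) between the 3 gut libraries against the mean gut count (log scale), with 1 point per contig. The 77 blue and 16 red points are the gut-restricted contigs without and with a gut library of at most 3 counts, and their median SD of 0.54 lies above the 0.26 of all contigs in grey.

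The tests between tissues are given as a description. With edgeR's quasi-likelihood test and Benjamini-Hochberg adjustment over 42878 contigs, 79 members were called higher in gut than in liver, where 10.8% of all tested contigs were so called. The number was 86 over hypothalamus, beside 12.5% of all contigs, and 84 over telencephalon, beside 18.9%. The rule used these contrasts, so nothing is read from the counts. Only 90 members were tested, since Singlet_55774_R, Singlet_56047 and c32110/f2p0/966 had counts in too few libraries. All 77 contigs without a near-empty gut library were called over each other tissue. Of the 16 with one, FHM_All_PTA_Assem.7664.C1 and c9045/f2p1/799 were called over all tissues, and 7 were called over none, the 3 that were not tested included. FHM_All_PTA_Assem.7598.C3, with its single high fish, was among those 7. With the replicate number as a block, all 90 tested members were called over each tissue. The block takes up differences between fish, and the rule left these contigs almost without reads outside gut. That fit therefore cannot show whether near-empty libraries matter, and nothing is read from its calls. The matching shares of all contigs were 13.6% over liver, 14% over hypothalamus and 21% over telencephalon.

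The rule was also applied with each fish left out in turn. No matching share was taken for other contigs, so the shares that held cannot be called high or low. In the fish left out, the limit of 50 fell on a single gut library and not on a mean. The rule was applied to both libraries of each tissue from a pair of fish, and the contigs so chosen were then looked up in the third fish, where a contig held if it had at least 50 counts in gut and at most 5 in each other tissue. Chosen without fish 1, 123 contigs qualified and 73 of them (59.3%) held in fish 1. Chosen without fish 2, 114 qualified and 72 (63.2%) held. Chosen without fish 3, 108 qualified and 70 (64.8%) held.  The gut count fell under 50 in 18, 25 and 18 contigs for fish 1, 2 and 3, and the limit elsewhere was passed in 37, 18 and 20.

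The tissue in which the limit was passed differed between fish. In fish 1 it was passed in hypothalamus by 26 contigs, in telencephalon by 15 and in liver by 15, and 11 of these passed it in both brain regions. In fish 2 the numbers were 7, 7 and 5, with 1 in both brain regions. In fish 3 they were 3, 2 and 15, with none in both. The contigs with the most reads outside gut in the fish left out, chosen after their values were seen, show the pattern. Singlet_13271 had 105, 167 and 373 counts in gut, against 14, 0 and 1 in liver, 395, 0 and 1 in hypothalamus and 239, 3 and 0 in telencephalon, so that both brain regions of fish 1 had more reads on it than the gut of that fish. FHM_All_PTA_Assem.24921.C1 had 2035, 3767 and 2140 counts in gut, against 4, 2 and 208 in liver, 3, 5 and 0 in hypothalamus and 5, 2 and 0 in telencephalon. Here liver replicate 3 alone was high, the library in which the members' own reads were also highest.

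The contigs came from different sources. The group held 38 contigs of the Paracel assembler, 27 PacBio isoforms, 17 unassembled single sequences and 11 expressed sequence tags. PacBio isoforms are long reads of RNA pooled from several tissues, gut, liver and brain among them. They made up 29.03% of the group and 9.18% of all contigs that reached a mean gut count of 50. Among the contigs nearly restricted to liver they were 5 of 68, and among those restricted to both brain regions 64 of 607. Paracel contigs made up 40.9% and 65.3%, single sequences 18.3% and 10.9%, and expressed sequence tags 11.8% and 14.2%. Near-empty gut libraries were found in all of these sources, in 6 Paracel contigs, 5 PacBio isoforms, 4 single sequences and 1 expressed sequence tag. No test was made of these shares. Paracel contigs held 57.0% of the group's gut counts and PacBio isoforms 23.98%.

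Levels can be compared between contigs only per length. Reads that matched several contigs were not counted, so the full length is only an approximate divisor. Only the PacBio isoforms give their length in their names. The 27 had a median length of 1122 bases, between 741 and 3401, against 1457 bases over the 1722 isoforms that reached a mean gut count of 50. A single full-length read supported 17 of them (63.0%), against 84.4% of the 1722. Per kilobase, c14038/f2p1/999 was the highest of the 6 named here, with 996 counts (573, 1298 and 1114 counts in gut before division by length), and c16251/f1p2/1479 was close to it with 975 (1104, 2114 and 1107). Next came c25826/f1p1/848 with 674 counts per kilobase, c11254/f7p0/1025 with 499, c18416/f1p0/1596 with 470 and c14283/f5p9/2540 with 277. The order by raw count was different, since c14283/f5p9/2540 stood above c25826/f1p1/848 and c11254/f7p0/1025 there. c11254/f7p0/1025 was the most even of the 6 between fish (472, 508 and 553 counts), while c25826/f1p1/848 was low in 1 (80, 732 and 902). c18416/f1p0/1596 had 959, 857 and 436 counts and 0 in every liver library. The lowest per length was c20740/f1p6/3401 with 15.4 counts per kilobase.

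Related sequences of the group were looked at through the assembly. The Paracel names give a cluster number shared by contigs of similar sequence, which can be isoforms, alleles, close paralogues or pieces of a transcript. The 38 Paracel contigs fell into 32 clusters, of which 10 held a single contig, and in 12, these included, every contig was a member. In 6 clusters there were 2 members. Reads that mapped to several contigs of a cluster were not counted, so the counts of related contigs cover only the parts in which they differ.

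Members of 1 cluster did not always follow each other across fish. In cluster 670, FHM_All_PTA_Assem.670.C5 had 1458, 1682 and 2807 counts in gut and FHM_All_PTA_Assem.670.C3 had 386, 547 and 870, with the same order of fish. In cluster 7664, FHM_All_PTA_Assem.7664.C2 had 637, 1350 and 884 counts and FHM_All_PTA_Assem.7664.C1 had 0, 862 and 572, so only the second was missing from fish 1. In cluster 2869, FHM_All_PTA_Assem.2869.C3 had 442, 711 and 477 counts and FHM_All_PTA_Assem.2869.C5 had 633, 0 and 620. The fish that had no read on the second of these had the most on the first. Cluster 2936 had FHM_All_PTA_Assem.2936.C2 at 77, 4465 and 167 counts and FHM_All_PTA_Assem.2936.C3 at 26, 61 and 68. In cluster 8993, FHM_All_PTA_Assem.8993.C3 had 626, 1390 and 250 counts and FHM_All_PTA_Assem.8993.C1 had 99, 157 and 61. Cluster 7170 held FHM_All_PTA_Assem.7170.C2 at 893, 646 and 715 counts and FHM_All_PTA_Assem.7170.C1 at 96, 54 and 84.

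Some near-empty contigs had a relative that was read in the same gut. Of the 16 near-empty contigs, 6 were Paracel contigs, and 5 of these shared their cluster with other contigs. For 4 of the 5, some contig of the cluster had over 3 counts in each near-empty library. No share was taken for other clustered contigs. FHM_All_PTA_Assem.7598.C3, at 1828, 3 and 3 counts, stood beside FHM_All_PTA_Assem.7598.C1, which is not a member, at 122, 283 and 214. FHM_All_PTA_Assem.19792.C1, at 275, 0 and 6, stood beside FHM_All_PTA_Assem.19792.C2 at 42, 36 and 42. For FHM_All_PTA_Assem.20015.C5 there was no such relative, since the cluster summed to 1311, 4 and 58 counts. These contigs were named after their values were seen.

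The mates of the group, contigs that shared a cluster with a member without being one, were mostly called higher in gut as well. There were 41 mates in 20 clusters, and 37 had enough reads for the tests. By edgeR's quasi-likelihood test, 24 of the 37 were higher in gut than in liver, 26 higher than in hypothalamus and 28 higher than in telencephalon. The matching shares over all contigs were 10.8%, 12.5% and 18.9%. Called lower in gut were 1 mate against liver, 0 against hypothalamus and 2 against telencephalon, beside 9.01%, 17.9% and 22.6% of all contigs. Against hypothalamus 2 mates were lower at an unadjusted p under 0.05, and DESeq2, edgeR's exact test and the fit with the replicate block called 0 lower, while a fit of all tissues and edgeR's expression filter each called 1 and scaling by library totals alone called 2. The 2 calls against telencephalon were both lost with the replicate block and with any 1 library left out, and the call against liver was lost without gut replicate 2 or any liver replicate. In all, 22 mates were called higher in gut than in every other tissue, beside 5.40% of all contigs tested. The median log2 fold change of the mates was 6.51 for gut over liver, 5.98 over hypothalamus and 6.26 over telencephalon, beside 0.05, -0.14 and -0.06 over all contigs tested. The mates share sequence and libraries with the members, so this is no independent sample of contigs.

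The mates with the largest fold changes had a higher mean gut count than any member. FHM_All_PTA_Assem.7170.C3 had 1398, 11351 and 1594 counts in gut, against 0, 3 and 1 in liver, with a log2 fold change of 10.75 (SE 1.32, adjusted p = 0.00118). FHM_All_PTA_Assem.2936.C1 had 7864, 6192 and 1177 counts in gut, against 0, 9 and 0 in liver (log2 fold change 9.76, SE 1.33, adjusted p = 0.00191). FHM_All_PTA_Assem.2869.CB2 had 72710, 129894 and 84363 counts in gut, against 2, 4 and 212 in liver (log2 fold change 9.37, SE 1.87, adjusted p = 0.0108). None of these met the rule, because their highest count outside gut was 11, 10 and 212. The last of these was in liver replicate 3. The fitted log2 fold changes depended on single libraries, though all stayed past the threshold. For FHM_All_PTA_Assem.2869.CB2 the value was 14.02 without liver replicate 3 and 11.46 with the replicate block. For FHM_All_PTA_Assem.2936.C1 it was 14.99 without liver replicate 2, where liver is at 0 and the fitted value is no bound. For FHM_All_PTA_Assem.7170.C3 it was 9.15 without gut replicate 2 and 11.9996 without liver replicate 2.

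Some clusters held a gut-restricted contig beside a contig that was read in other tissues too. A mean of at least 50 counts in another tissue was seen for 9 mates in 7 clusters, 8 of them in liver, 8 in hypothalamus and 8 in telencephalon. These include FHM_All_PTA_Assem.2869.CB2, whose gut counts were far above those elsewhere, and 4 of the 9 had a higher mean in some other tissue than in gut. In cluster 1811, FHM_All_PTA_Assem.1811.C2 had 523, 502 and 542 counts in gut, against 389, 208 and 364 in liver and 937 to 1216 in the brain libraries. Its log2 fold change for gut over liver, -0.23, did not pass the test (SE 0.28, adjusted p = 0.648), and it was 0.34 when scaled by library totals alone. The member of the same cluster, FHM_All_PTA_Assem.1811.C1, was read 125, 160 and 148 times in gut, against 1, 0 and 2 times in liver and at most 1 time in each brain library. In cluster 6638 the mate FHM_All_PTA_Assem.6638.C4 was lower in gut than in liver, with 120, 383 and 504 counts in gut, against 524, 661 and 545 in liver (log2 fold change -1.70, SE 0.47, adjusted p = 0.0402). The call was lost without gut replicate 2 (adjusted p = 0.129) and without liver replicate 1, 2 or 3 (adjusted p = 0.0706, 0.107 and 0.0944). FHM_All_PTA_Assem.6638.C1 had a log2 fold change of -0.61 (SE 0.18, adjusted p = 0.0552). The member FHM_All_PTA_Assem.6638.C2 had 23, 110 and 210 counts in gut, 0 in all liver libraries and 1 in a single brain library.

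Cluster 670, which held the highest member, also held a contig shared with liver. FHM_All_PTA_Assem.670.C1 had 26286, 16476 and 23507 counts in gut, set against 19990, 5149 and 10644 counts in liver and 11 to 55 in the brain libraries. Its log2 fold change for gut over liver was -0.04. The members held a median of 22.8% of their cluster's gut counts in the 20 clusters with mates, between 0.970% in cluster 2869 and 99.9% in cluster 4749. In each of these 20 clusters, 670, 1811 and 6638 among them, the rule was by definition met by only some of the contigs.

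**Figure D5:**
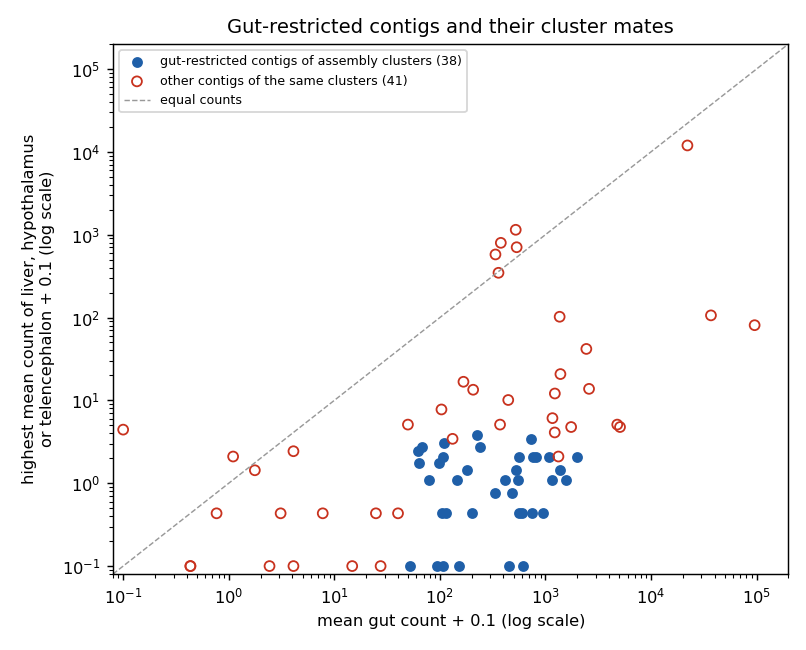
Highest mean count among liver, hypothalamus and telencephalon against the mean gut count, both plus 0.1 on log scales, for the 38 gut-restricted Paracel contigs (filled) and the 41 other contigs of their clusters (open). Of the 25 mates with a mean gut count of at least 50, 4 lie above the dashed line of equal counts and the others below it.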

How the data were processed

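Paired reads of messenger RNA from 3 adult males were sequenced on an Illumina instrument. According to the methods, the authors trimmed them with cutadapt, aligned them with bowtie 2, discarded likely PCR duplicates and counted reads with a single match through in-house scripts, whose versions the sources used here do not give. As mapping target the methods mention consensus sequences as well as zebrafish sequences, while the names in the lists are FHM ones. The deposited values are raw counts per contig, as whole numbers.

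Lists were joined by contig name, and absent contigs were set to 0. No column lacked a mapped sample. Gut was compared with each other tissue in a fit of those libraries only (edgeR 4.0.16, R 4.3.3, TMM scaling, quasi-likelihood test, Benjamini-Hochberg threshold 0.05). A contig was tested if, in some tissue, 2 or more replicates had a count, which left 42878. The SE given with a log2 fold change was its absolute value over the square root of the test's F statistic. The fit did not estimate it directly. DESeq2 1.42.0, edgeR's exact test, a fit of all tissues, other scalings, filters and limits, the replicate block and leaving out each library were the alternatives. On counts simulated for gut against liver over 42878 contigs, 88 of 100 contigs with a 16-fold change and 27 of 100 with a 4-fold change were recovered, beside 21 false calls. For hypothalamus the numbers were 83, 27 and 12, and for telencephalon 94, 43 and 22. The changes were planted around levels shared by both tissues, so no recovery is given for contigs near 0 outside gut.

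The members and lists were chosen with earlier results of these data known. Named members were the 10 highest and 4 lowest by gut mean, the 2 most and 2 least variable between gut libraries, those sharing a cluster, the 6 highest PacBio isoforms, the 3 contigs nearest outside each limit, and the mates with the 3 largest and 3 smallest fold changes over liver. Others were named after their values were seen. Deviations of same-numbered libraries from their tissue means correlated with r of 0.19 to 0.83 in 18 pairs, and the study describes 3 individual fish, so the number was taken as the fish. The labels do not state this link across tissues. No sequences of the contigs were used here.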

Additional observations from a re-analysis of the deposited data

How the results depend on the processing

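The numbers of members and of mates called higher in gut stayed within 1.5 times under every alternative fitted. With the replicate number as a block, 90 members were called over each tissue, and 25, 25 and 26 mates over liver, hypothalamus and telencephalon. The group itself depended on its limits. It had 47 contigs with an upper limit of 2 counts, 194 with 10 and 60 when every gut library had to reach 50, and between 86 and 123 with libraries left out. Limits on counts scaled by TMM gave 83 contigs, of which 73 were shared. With an upper limit of 10 in the leave-out of each fish, 152 of 266 chosen contigs (57.1%) held in fish 1. In fish 2 it was 158 of 227 (69.6%) and in fish 3 it was 153 of 210 (72.9%). The median spread between gut libraries was 0.32 to 0.55 with 1 gut library left out. Limits for a near-empty library chosen after seeing the data gave 14 contigs at 0 counts, 18 at most 10 and 19 under 5% of the highest gut library. Scaling by library totals alone moved the median log2 fold change of all contigs to 0.60 over liver, -0.61 over hypothalamus and -0.64 over telencephalon, and turned FHM_All_PTA_Assem.1811.C2 to 0.34 over liver (adjusted p = 0.442). FHM_All_PTA_Assem.6638.C4 lost its call with that scaling (adjusted p = 0.122) and without gut replicate 2 or any liver replicate (adjusted p = 0.0706 to 0.129), while FHM_All_PTA_Assem.6638.C1 gained one with DESeq2 (adjusted p = 0.00908), a fit of all tissues and edgeR's expression filter. The causes were not tested. A contig at 0 in a library is bounded only by 3 counts, and all differences between fish rest on 3 animals.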
